A study of Drosophila melanogaster with 9 samples.

Results

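Contacts of 5 heat shock gene loci were read from 2 lists of interacting 10 kb bins made by Hi-C, an assay that joins and sequences DNA ends lying close together in fixed nuclei. The loci hold the 10 genes Hsp70Aa and Hsp70Ab (the Hsp70A locus), Hsp70Ba, Hsp70Bb and Hsp70Bc (the Hsp70B locus), Hsp68, the small heat shock genes Hsp22, Hsp23 and Hsp26 (the small Hsp cluster), and Hsp83. A pair belonged to a locus when the start of at least 1 of its bins lay in the window of that locus. The windows were 3R 7760001-7810000 for Hsp70A, 3R 8270001-8360000 for Hsp70B, 3R 19860001-19910000 for Hsp68, 3L 9350001-9400000 for the small Hsp cluster and 3L 3170001-3220000 for Hsp83, in Release 5 (dm3) coordinates, which the arm limits of the lists match. They cover 29 of the 11882 bins of the 5 arms. In all, 838 of the 82344 different pairs in the lists touched a locus.

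The cells were Kc167, an established line of female embryonic cells of Drosophila melanogaster, grown at 25 °C, warmed to 37 °C for 20 min, fixed with formaldehyde and cut with HindIII. The 2 Hi-C libraries of heat-shocked (HS) cells share 1 deposited list, called the HS list here (59303 pairs, 670 of them at the loci). The other deposited list, called the second list (33978 pairs, 262 at the loci), is tied by no label to any cells, treatment or number of libraries, so a difference between the lists is not shown to be an effect of heat. Neither list gives read counts or replicates: depth is unknown, no test between the lists was possible, and a pair can be missing from a list although its bins were in contact.

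Heat shock genes encode chaperones, proteins that bind unfolded proteins and help them refold. In Drosophila the heat shock factor, HSF, binds short elements in their promoters within moments of a temperature rise, and RNA polymerase II that had paused near the start of the gene is released. The loci of this gene set are the sites of heat shock puffs on the polytene chromosomes of larval salivary glands, where chromatin opens visibly on heating. Hsp70 and its relative Hsp68 are ATP-driven chaperones made almost only under stress, the small heat shock proteins hold unfolded proteins without using ATP, and Hsp83 is the fly Hsp90, which is also made in unstressed cells.

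All 5 loci had more pairs in the HS list. For Hsp70A, Hsp68 and Hsp83 the excess was larger than over the rest of their arms, and for Hsp70B and the small Hsp cluster it was not. Hsp70A had 110 pairs in the HS list and 21 in the second list, a ratio of 5.24 (95% interval 3.26 to 8.8). Hsp68 had 140 and 36 pairs in the HS and second lists, a ratio of 3.89 (2.68 to 5.78). Over the whole arm 3R the ratio was 2.09 (2.04 to 2.15), below the interval of both loci. Hsp83 had 233 pairs in the HS list and 85 in the second list, a ratio of 2.74 (2.13 to 3.56), against 1.62 (1.58 to 1.67) over arm 3L. The remaining loci stood near or under their arms: Hsp70B had 94 heat-shock and 55 second-list pairs, a ratio of 1.71 (1.21 to 2.43), and the small Hsp cluster had 95 heat-shock and 66 second-list pairs, a ratio of 1.44 (1.04 to 2.0). With the HS list shortened to its strongest pairs, as many as the second list holds, the ratio was 0.891 for Hsp70B, against 1.22 over 3R, and 0.561 for the small Hsp cluster, against 0.9 over 3L; shortening 1 list lowers every ratio. Without the bins in the top 1% by partners in either list, the position against the arms changed for 3 loci. Hsp83 then had a ratio of 1.29 (0.604 to 2.79), below the 1.46 of 3L, while Hsp70B at 3.12 (1.37 to 8.02) was above the 1.59 of 3R. The small Hsp cluster at 1.48 (1.06 to 2.07) was just above 3L. The cluster lost no bin of its own and kept 93 heat-shock and 63 second-list pairs. Its ratio hardly moved, and its position changed because the 3L value fell from 1.62 to 1.46. Hsp68 was then close to its arm, at 1.67 (0.845 to 3.4), and Hsp70A stayed above it, at 5.35 (3.3 to 9.11). No bin of Hsp70A was left out in this setting, and 107 heat-shock and 20 second-list pairs remained. The setting therefore hardly tested that locus. The intervals are exact conditional binomial intervals that cover counting error only and treat neighbouring pairs as independent, which they are not.

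**Figure D1:**
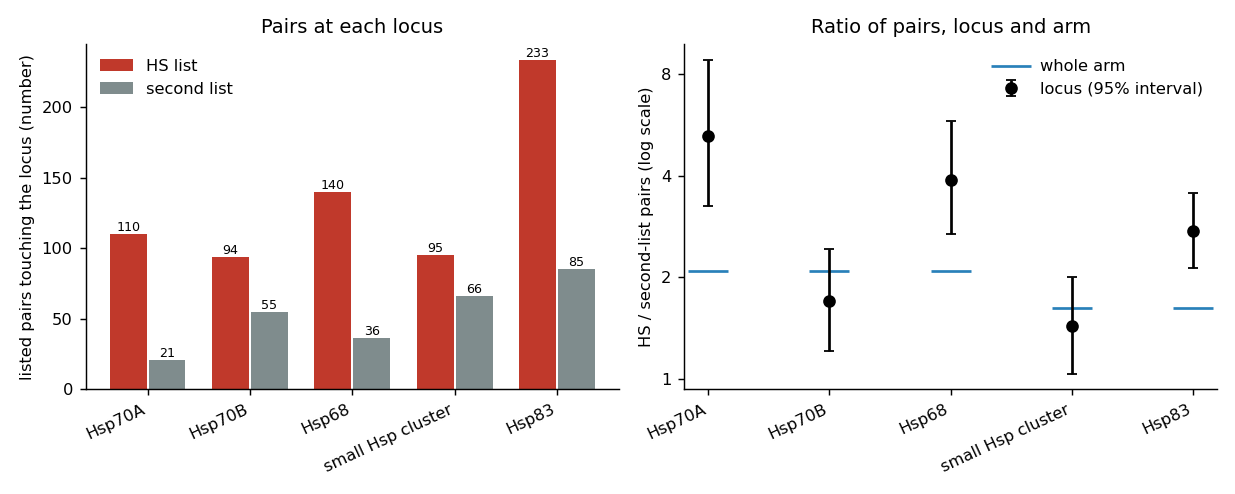
Left, the number of listed pairs that touch each locus (bars, HS list in red and second list in grey). Right, the ratio of HS to second-list pairs on a log axis, with 95% intervals for counting error (points and bars) and the ratio of the whole chromosome arm (blue dashes). Hsp70A at 5.24, Hsp68 at 3.89 and Hsp83 at 2.74 lie above their arms, while the intervals of Hsp70B and the small Hsp cluster hold the arm value.

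Set beside all runs of 5 neighbouring bins on 3R, Hsp70A and Hsp68 were rich in the HS list. The median run on 3R had 41 heat-shock pairs (quartiles 29 and 68) and 21 second-list pairs (13 and 36), with a median ratio of 2.05 (1.49 and 2.89). Hsp70A, with 21 second-list pairs, was thus at the 3R median in the second list and above the upper quartile in the HS list. Hsp68, with 36 second-list pairs, was at the upper quartile in the second list and above it in the HS list. On 3L the median run of 5 bins had 35 heat-shock pairs (24 and 58) and 22 second-list pairs (14 and 36). Hsp83 and the small Hsp cluster exceeded the upper quartile in both lists. Hsp70B, whose window spans 9 bins, lay between the median (79.5 and 40 pairs) and the upper quartile (129 and 65 pairs) of 3R runs of that length in the HS and second lists.

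In the HS list most pairs of each locus came from 1 bin. The richest bin of Hsp70A supplied 70.0% of its heat-shock pairs, that of Hsp70B 70.2%, that of Hsp68 80.7%, that of the small Hsp cluster 63.2% and that of Hsp83 63.9%. The median run of 5 bins drew 41.2% of its heat-shock pairs from its richest bin on 3R and 41.6% on 3L, and the median run of 9 bins on 3R drew 29.0%. In the second list the share of the richest bin was 71.4% for Hsp70A, 81.8% for Hsp70B, 58.3% for Hsp68, 50% for the small Hsp cluster and 56.5% for Hsp83, where it was another bin than in the HS list. The median runs of 5 bins drew 43.8% on 3R and 42.9% on 3L there, and those of 9 bins on 3R 30.6%. When the pairs of the richest bin were left out, a step chosen after the data were seen, Hsp70A kept a ratio of 5.33 (2.20 to 15.6; 32 heat-shock and 6 second-list pairs). Hsp68 then had a ratio of 1.80 (0.924 to 3.64) and Hsp70B of 2.80 (1.32 to 6.46), against 2.08 over 3R. Hsp83 had a ratio of 1.31 (0.937 to 1.85) and the small Hsp cluster of 1.06 (0.64 to 1.76), against 1.61 over 3L. Hsp68 and Hsp83 were thus no longer above their arms, and Hsp70B was. Apart from Hsp70A, each interval held the arm value. The bin left out was picked by its heat-shock partners, which favours a lower ratio. With the bin richest in the second list left out instead, Hsp83 had a ratio of 4.65 (3.24 to 6.82; 172 heat-shock and 37 second-list pairs). At the other loci that is the same bin. The ratio over 3L in this setting was 1.63.

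Across the 29 bins of the windows, 25 had a pair in at least 1 list. Their median number of partners, the different bins a bin is paired with, was 10 in the HS list and 4 in the second list, against 6 and 3 over all 11120 bins used. A change of partners was called where partners + 1 differed at least 2-fold between the lists. By this rule 12 of the 25 bins (48.0%) had more partners in the HS list, against 41.3% of all used bins, and 2 (8.0%) had fewer, against 6.61%. Both shares are near the background, so these counts are not a result about the loci. Of the 12 bins, 3 lay in Hsp70A, 4 in Hsp70B, 2 in Hsp68, 1 in the small Hsp cluster and 2 in Hsp83.

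**Figure D2:**
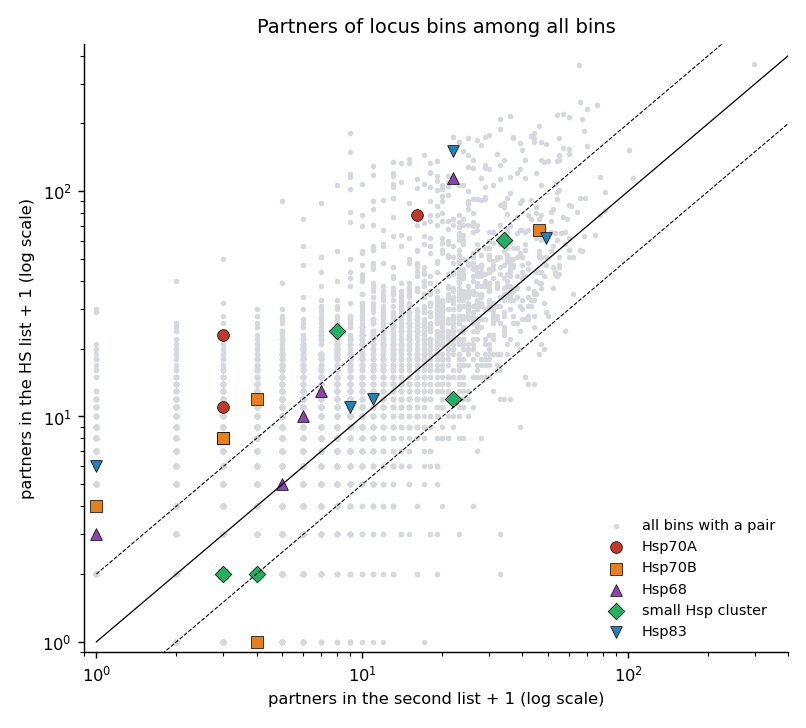
Partners + 1 of every bin in the second list (x, log axis) and the HS list (y, log axis); grey points are all bins with a pair, coloured markers the bins of the 5 loci, the solid line marks equality and the dashed lines a 2-fold difference. The richest bins of Hsp83 (149 and 21 partners in the HS and second lists), Hsp68 (113 and 21) and Hsp70A (77 and 15) stand above the upper dashed line, while those of Hsp70B (66 and 45) and the small Hsp cluster (60 and 33) lie between the lines.

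The Hsp70A locus holds Hsp70Aa and Hsp70Ab, neighbouring copies of the main inducible Hsp70 gene. In the Release 6 gene table no other gene lies between them, and CG31211 and CG3281 flank them. That table is of another release than the lists, so genes could not be placed in single bins. From the low end of the window, the 5 bins had 1, 22, 0, 77 and 10 partners in the HS list and 2, 2, 0, 15 and 2 in the second list. The middle bin, 3R 7780001-7790000, was thus empty in both lists, with richer bins on either side of it.

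The bins on the 2 sides of this empty bin pointed in opposite directions along the arm. Of the 77 heat-shock partners of 3R 7790001-7800000, 57 (74.0%) lay towards the telomere end, and within 1 Mb the count was 27 of 28. In the second list 12 of its 15 partners lay on that side. Of the 22 heat-shock partners of 3R 7770001-7780000, only 4 (18.2%) lay towards the telomere end. That bin had 2 partners in the second list, 1 on each side. Its heat-shock partners included 3R 1360001-1370000, 6.41 Mb away, with the strongest score of the locus (-7.872), a pair that the second list did not hold. A score here is the authors' own, on which more negative is stronger, and its scale may differ between the lists.

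Many second-list contacts of Hsp70A were also in the HS list, beside a larger number that were not in the second list. The bin 3R 7790001-7800000 had 10 of its 15 second-list partners in both lists and 67 others in the HS list alone. Over the whole locus 11 pairs were in both lists, which is 10.0% (5.1 to 17.2%) of its heat-shock pairs and 52.4% (29.8 to 74.3%) of its second-list pairs. Over arm 3R the shared pairs made up 13.6% of the HS list and 28.4% of the second list. The median distance of Hsp70A pairs was 1.14 Mb (0.95 to 1.6 Mb) in the HS list and 0.45 Mb (0.4 to 0.73 Mb) in the second list. Over the whole of 3R the median was also longer in the HS list, at 1.81 Mb against 1.2 Mb in the second list. Those from 1 to 5 Mb apart numbered 60 of 110 (54.5%) in the HS list and 3 of 21 (14.3%) in the second list, against 47.6% and 34.2% over 3R. Pairs at 200 kb to 1 Mb made up 30.9% of its heat-shock pairs and 71.4% (47.8 to 88.7%) of its second-list pairs, against 26.0% and 37.7% over 3R. The longest pair was the other way round, 7.41 Mb in the HS list and 11.26 Mb in the second list, and 4 (3.64%) heat-shock and 2 (9.52%) second-list pairs were over 5 Mb apart.

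**Figure D3:**
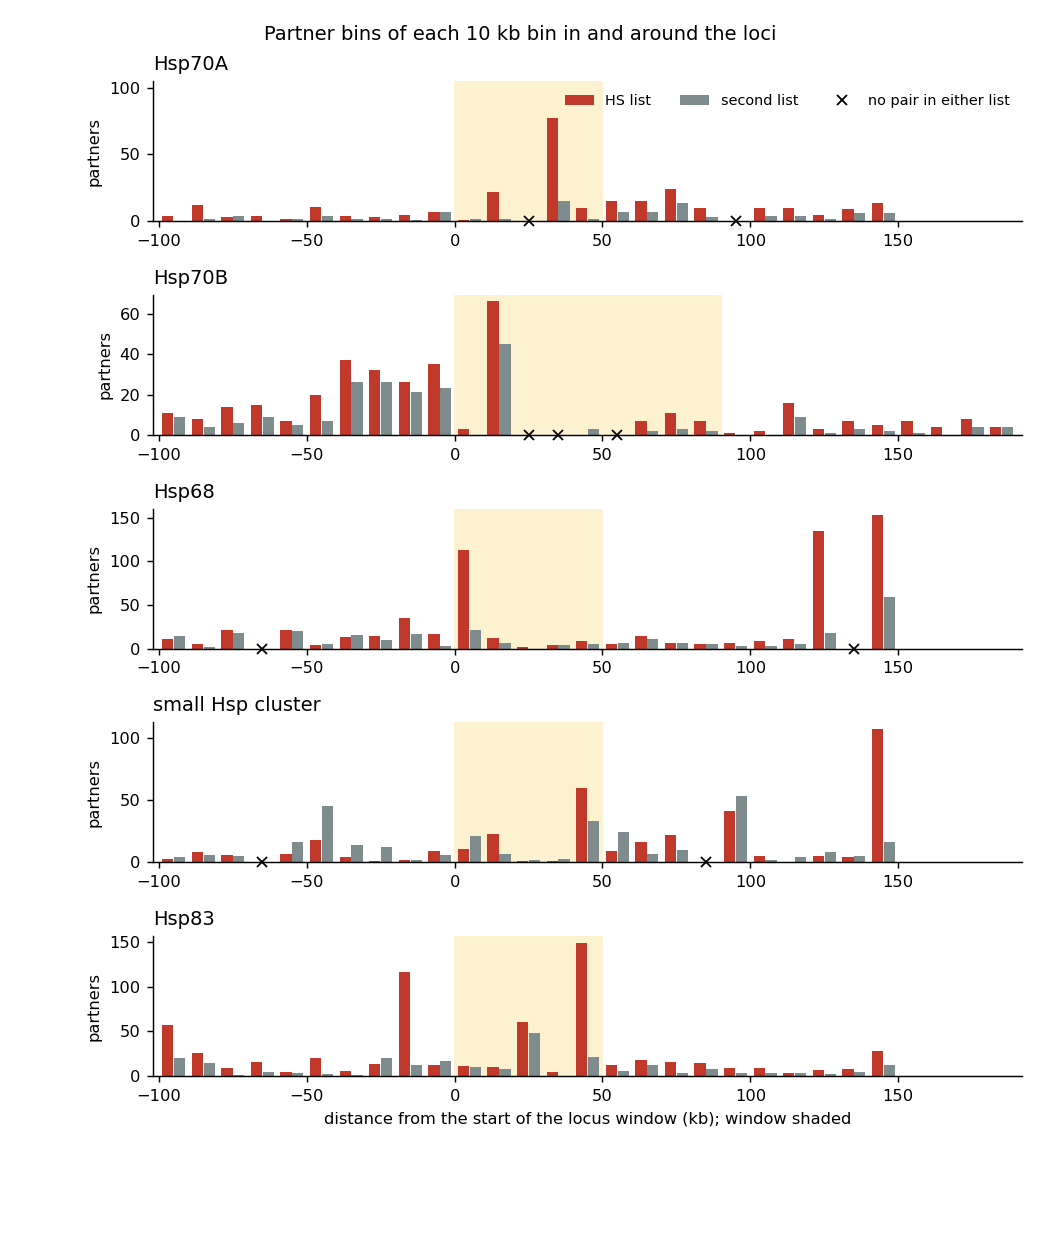
Number of partner bins (y) of each 10 kb bin within 100 kb of the 5 locus windows, by distance from the start of the window (x, kb), in the HS list (red) and the second list (grey). Windows are shaded and crosses mark bins with no pair in either list. Each window has 1 bin above the others in the HS list, and inside the windows crosses appear in Hsp70A (1 bin) and Hsp70B (3 bins).

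The Hsp70B locus holds Hsp70Ba and, beyond the alphagamma-element noncoding gene, a row of further copies in the order Hsp70Bbb, Hsp70Bb and Hsp70Bc, with the pseudogenes CR46154 and CR46155 between them, as the Release 6 table orders them. Its 9 bins had, from the low end, 3, 66, 0, 0, 0, 0, 7, 11 and 7 partners in the HS list and 0, 45, 0, 0, 3, 0, 2, 3 and 2 in the second list. A gap of 4 bins in the HS list thus ran from 3R 8290001 to 8330000, between the single rich bin and a poor stretch. In the second list the gap was broken by 3R 8310001-8320000 alone.

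Bins with no pair in either list numbered 4 of the 29 (13.8%), against 6.41% of all 11882 bins and 4.62% of those on 3R, and all 4 lay in the Hsp70 windows. They were 3R 7780001-7790000 in Hsp70A and, in Hsp70B, 3R 8290001-8300000, 3R 8300001-8310000 and 3R 8320001-8330000. Of all 3R runs of 9 bins, 0.467% had 3 or more such bins, and Hsp70B is among them. These runs overlap, so several of those counted hold the same empty Hsp70B bins. The Hsp70 genes are near-identical copies, and reads that fit several copies may not be placed on any of them, so the contacts of these windows are uncertain; the part of this in the empty bins was not tested. The Hsp68, small Hsp and Hsp83 windows had no bin empty in both lists, although 3L 3200001-3210000 in Hsp83 and 3R 19880001-19890000 in Hsp68 had second-list partners at 0 with 5 and 2 partners in the HS list.

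The second-list pairs of 3R 8310001-8320000 were few and strong. All 3 joined it to neighbouring bins about as far away: 3R 3180001-3190000 with a score of -49.829, 3R 3160001-3170000 with -37.483 and 3R 3170001-3180000 with -25.251, at 5.13, 5.15 and 5.14 Mb. They ranked 48, 83 and 164 among the 33978 second-list pairs. None of them was in the HS list, where the bin had no partner at all. The strongest heat-shock pair of Hsp70B was weaker by the score of its own list, -5.944 at rank 2252, and joined 3R 8280001-8290000 to 3R 11180001-11190000, 2.90 Mb away.

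The rich bin 3R 8280001-8290000 had mostly different partners in the lists, as was usual on 3R. It had 66 partners in the HS list and 45 in the second list. Of these, 10 were the same, 15.2% of the heat-shock and 22.2% of the second-list set. Over arm 3R the shared pairs made up 13.6% of the HS list and 28.4% of the second list. The bin ranked 60 by partners on 3R in the HS list and 18 in the second list. All 10 pairs that Hsp70B shared between the lists came from this bin, and they made up 10.6% (5.22 to 18.7%) of the heat-shock and 18.2% (9.08 to 30.9%) of the second-list pairs of the locus. Pairs at 200 kb to 1 Mb were 10.6% of its heat-shock pairs and 29.1% of its second-list pairs, against 26.0% and 37.7% over 3R. The median distance was 3.01 Mb (2.7 to 3.78 Mb) in the HS list and 2.74 Mb (1.05 to 3.47 Mb) in the second list, with overlapping intervals.

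The 2 Hsp70 loci were the only ones paired with each other. Their windows lie 0.46 Mb apart, while the other loci on a shared arm lie 6.13, 11.5 or 12.05 Mb apart. How many pairs to expect at those distances was not worked out, so their absence is not a result about the loci. The rich bins of the Hsp70 loci, 3R 7790001-7800000 and 3R 8280001-8290000, formed a pair in each list. It scored -5.039 (rank 4109) in the HS list and -5.4 (rank 2560) in the second list. Of the 42 heat-shock pairs on 3R that lay exactly 0.49 Mb apart, 3 had this score or a stronger one, the Hsp70 pair included. It was the strongest of the 40 second-list pairs at that distance. The HS list held a second pair, 3R 7800001-7810000 with 3R 8280001-8290000, at -2.291, close to the limit of -2. That makes 2 heat-shock pairs and 1 second-list pair out of 45 possible bin combinations, all with 3R 8280001-8290000. For comparison, 42 heat-shock and 40 second-list pairs were listed out of 2741 possible bin pairs 0.49 Mb apart on 3R. Whether the counts between the loci exceed that background was not tested.

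Hsp70A was paired in both lists with the stretch just before the Hsp70B window. In the HS list 15 pairs of Hsp70A, to 10 different bins, ended in the 100 kb before that window, and in the second list 10 pairs, to 8 bins; 8 of these pairs were the same. No pair of Hsp70A ended in the 100 kb after the Hsp70B window in either list. That stretch lies farther from Hsp70A, and its nearest bins were poorer. They had 1, 2, 16, 3 and 7 heat-shock partners, against 20, 37, 32, 26 and 35 in the nearest bins before the window. The counts were adjusted for neither. The best Hsp70A pair into the stretch before the window joined 3R 7790001-7800000 to 3R 8260001-8270000, with -7.835 in the HS list and -7.181 in the second list. Of all Hsp70A pairs, 26 (23.6%) in the HS list and 11 (52.4%) in the second list ended between the windows, and 9 were shared. From the other side Hsp70B had 4 pairs into that interval in the HS list and 1 in the second list. Of the pairs of 3R 8280001-8290000 within 1 Mb, 11 of 12 in the HS list and 11 of 16 in the second list went towards the centromere end. That side holds Hsp70A but also bins beyond it. Only 2 heat-shock pairs and 1 second-list pair ended in Hsp70A itself. Some of the 11 heat-shock pairs and most of the 11 second-list pairs therefore ended beyond Hsp70A.

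**Figure D4:**
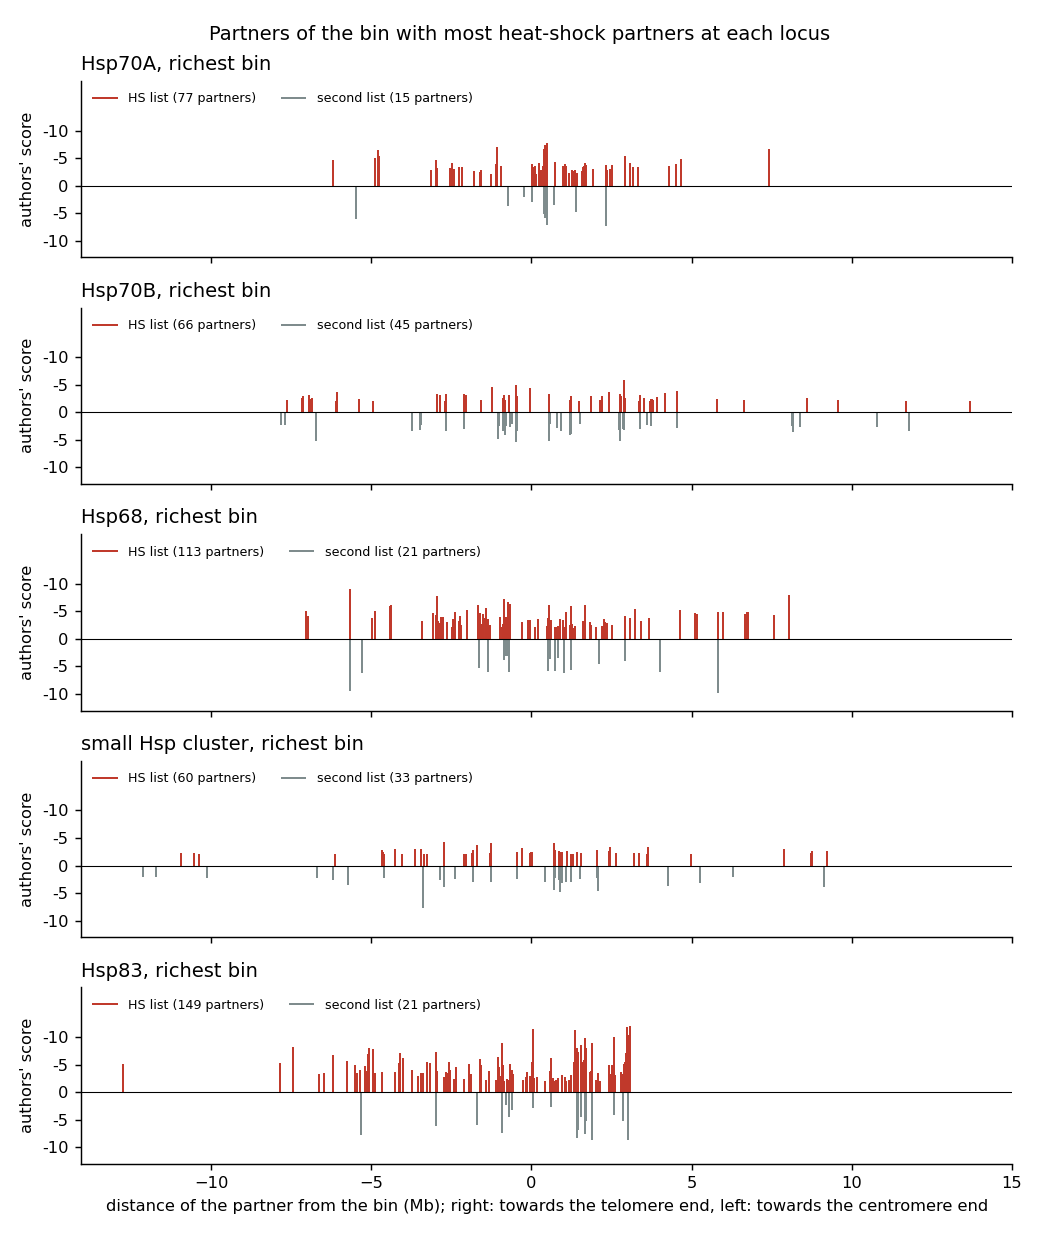
Partners of the bin with most heat-shock partners at each locus, by distance (x, Mb; right towards the telomere end, left towards the centromere end). Line length gives the authors' score, drawn upwards for the HS list (red) and downwards for the second list (grey). Partners of the Hsp70A bin near 0 lie mostly to the right, towards Hsp70B, and partners of the Hsp83 bin run up to the arm end at the right.

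Hsp68 encodes a stress-induced member of the Hsp70 family and lies between CG6000 and SMC1 in the Release 6 order. Its 5 bins had, from the low end, 113, 12, 2, 4 and 9 partners in the HS list and 21, 6, 0, 4 and 5 in the second list. The first of them, 3R 19860001-19870000, ranked 38 by partners among the bins of 3R in the HS list and 103 in the second list. It kept 14 of its 21 second-list partners (66.7%) and had 99 that were not in the second list. The other bins shared none of their partners between the lists, so all 14 pairs of Hsp68 found in both lists involved this bin. They made up 10.0% (5.58 to 16.2%) of the heat-shock and 38.9% (23.1 to 56.5%) of the second-list pairs of the locus. Over arm 3R the shares were 13.6% and 28.4%.

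The partners of 3R 19860001-19870000 lay on both sides, 50 of 113 (44.2%) towards the telomere end in the HS list and 12 of 21 (57.1%) in the second list. Its strongest heat-shock pair, to 3R 14210001-14220000 at 5.65 Mb, was present in both lists with close values, -8.981 in the HS list and -9.425 in the second list. Its second, to 3R 27890001-27900000, the last bin used on the arm and 8.03 Mb away, scored -7.978 and was not in the second list. The strongest second-list pair, to 3R 25680001-25690000 at 5.82 Mb, scored -4.903 in the HS list and -9.738 in the second list. In all, 5 of the 140 heat-shock pairs and none of the 36 second-list pairs of Hsp68 ended in the 1 Mb at the telomere end of 3R. With so few second-list pairs, this is not shown to be a difference. The median distance of Hsp68 pairs was 1.68 Mb (1.51 to 2.27 Mb) in the HS list and 1.52 Mb (0.82 to 2.83 Mb) in the second list, with overlapping intervals. Neither list held a pair of Hsp68 with Hsp70A, 12.05 Mb away, or with Hsp70B, 11.5 Mb away.

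The small Hsp cluster holds, in the Release 6 order, Hsp67Bc, CG4456 (also called Hsp67Bb), Hsp22, Hsp26, Hsp67Ba, Hsp23 and Hsp27. Hsp22 works in mitochondria and Hsp27 in the nucleus, while Hsp23 and Hsp26 are cytosolic. The 5 bins of the window had, from the low end, 11, 23, 1, 1 and 60 partners in the HS list and 21, 7, 2, 3 and 33 in the second list. It was the only locus in which a bin with 10 or more second-list partners had fewer in the HS list: 3L 9350001-9360000 had 11 in the HS list and 21 in the second list, a difference just short of the 2-fold limit. The bin beside it, 3L 9360001-9370000, went the other way, with 23 and 7.

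The poorest bins of the cluster had its strongest pairs. The only heat-shock partner of 3L 9380001-9390000 was 3L 15900001-15910000, 6.52 Mb away, at -46.061, rank 10 of 59303. The same pair scored -135.437 in the second list, rank 13 of 33978. The only heat-shock partner of 3L 9370001-9380000 was 3L 3450001-3460000, 5.92 Mb away, at -21.099 (rank 80) in the HS list and -25.101 (rank 167) in the second list. A second-list pair of the same bin to 3L 5160001-5170000 scored -34.308 and was not in the HS list. The rich bin 3L 9390001-9400000, with 60 and 33 partners in the HS and second lists, had no score stronger than -4.228 in the HS list and -7.786 in the second list. Over the cluster 20 pairs were in both lists, 21.1% (13.4 to 30.6%) of its heat-shock and 30.3% (19.6 to 42.9%) of its second-list pairs, against 17.4% and 28.2% over 3L. Its median distance was 2.65 Mb (2.0 to 3.44 Mb) in the HS list and 2.53 Mb (1.74 to 3.4 Mb) in the second list.

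Hsp83, which lies between CG14965 and CG14966 in the Release 6 order, had the most pairs of the 5 loci in both lists. Its bins had, from the low end, 11, 10, 61, 5 and 149 partners in the HS list and 10, 8, 48, 0 and 21 in the second list. The richest bin was therefore not the same in the lists. In the HS list it was 3L 3210001-3220000, sixth of 3L by partners, with 149 partners there and 21 in the second list. In the second list it was 3L 3190001-3200000, which ranked 42 with 61 partners in the HS list and 13 with 48 partners in the second list. The bin 3L 3210001-3220000 kept 16 of its 21 second-list partners (76.2%) and had 133 others. The bin 3L 3190001-3200000 kept 19 of 48 (39.6%). Over the locus 40 pairs were in both lists, 17.2% (12.6 to 22.6%) of its heat-shock and 47.1% (36.1 to 58.2%) of its second-list pairs. Over arm 3L the shares were 17.4% and 28.2%, so the heat-shock share of Hsp83 was that of its arm.

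The contacts of Hsp83 lay mostly 1 to 5 Mb away in both lists. Such pairs made up 72.1% (65.9 to 77.8%) of its heat-shock and 71.8% (61.0 to 81.0%) of its second-list pairs, against 46.4% and 34.5% over 3L. The median distance was 1.85 Mb (1.66 to 2.12 Mb) in the HS list and 1.58 Mb (1.51 to 1.69 Mb) in the second list. The window starts 3.07 Mb from the first bin used on 3L, at the telomere end. There, 39 of the 230 HS pairs and 12 of the 83 second-list pairs that left the window ended in the outermost 1 Mb. The strongest heat-shock pairs joined 3L 3210001-3220000 to 3L 130001-140000 at -11.977 and to 3L 230001-240000 at -11.769, and neither was in the second list. The third, at -11.426, lay inside the window, between 3L 3170001-3180000 and 3L 3210001-3220000, and scored -2.835 in the second list. Hsp83 had 3 such inner pairs in the HS list and 2 in the second list, and the small Hsp cluster had 1 in the HS list.

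**Figure D5:**
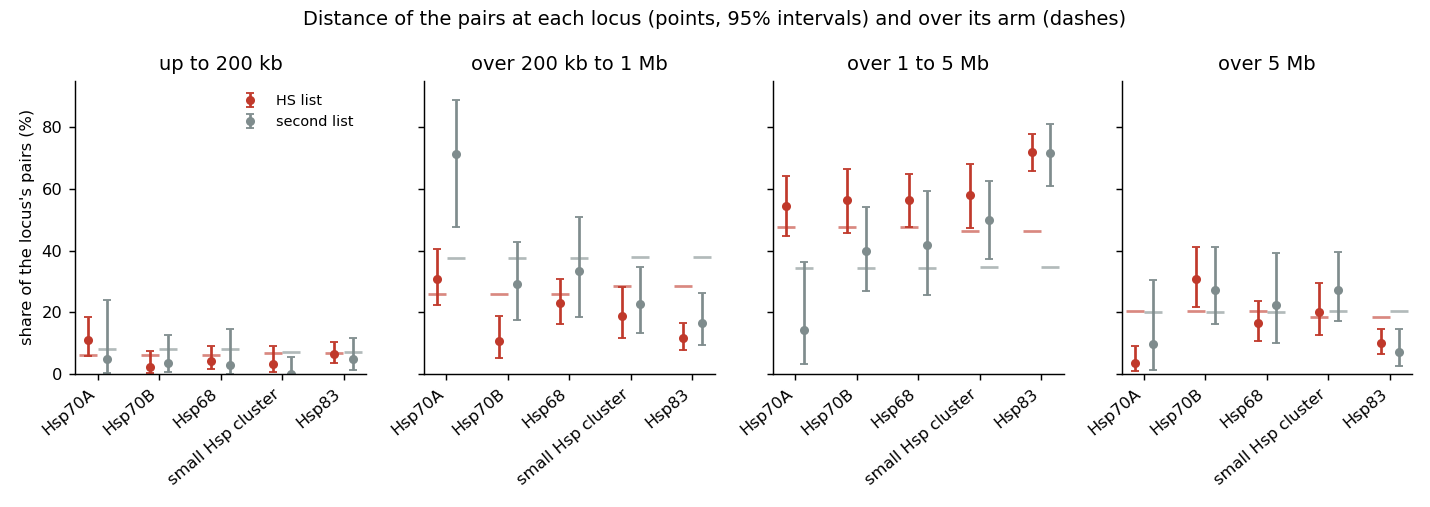
Share of the pairs of each locus (y, percent) in 4 distance bands in the HS list (red) and the second list (grey), with exact 95% binomial intervals for counting error; dashes give the share over the whole arm. Hsp70A differs between the lists at 1 to 5 Mb (54.5% and 14.3% in the HS and second lists), and Hsp83 stands above its arm there in both lists (72.1% and 71.8%).

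Hsp83 and the small Hsp cluster, 6.13 Mb apart, were paired with each other in neither list, but they had partners in common. In the HS list 24 bins were partners of both, 13.9% of the 173 partners of Hsp83 and 30.8% of the 78 partners of the cluster, and 17 of the 24 lay between the loci. In the second list 8 bins were, 12.3% of the 65 partners of Hsp83 and 13.3% of the 60 partners of the cluster. On 3R, Hsp70A and Hsp70B had 12 common partners in the HS list, 11.9% and 13.0% of their own, and none in the second list, where Hsp70A had 19 partners in all. Hsp70B and Hsp68 had 4 in the HS list and 1 in the second list, and Hsp70A and Hsp68 had none in either list. None of the common partners was among the 111 bins with 100 or more heat-shock partners. They were still richer than most bins. In the HS list their median was 27.5 heat-shock partners for Hsp83 and the cluster, against 6 over the used bins of 3L. It was 24.5 for Hsp70A and Hsp70B and 22 for Hsp70B and Hsp68, against 7 over 3R. The numbers of common partners grow with the pairs in a list and with the partners of each bin, and were adjusted for neither.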

How the data were processed

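Per the labels, Hi-C was made from Kc167 cells with HindIII, and the submitters' processing notes list Bowtie 0.12.7. The deposited score of each bin pair is the authors' own; it was never above -2, and its base, test and background model are, like the genome build and any pooling of reads, not given in the sources used here. Arm limits match Release 5. Left aside, and not analysed here, were 7 ChIP-seq and input libraries. The members and lists were chosen with earlier results of these data known. Pairs were counted by the start of either bin, and named by a rule: every bin of a window, the 3 strongest pairs per locus and list, and all pairs between loci. Numbers of pairs were compared with exact intervals (Python 3.11.15, SciPy 1.17.1, pandas 2.3.3), and no test was run. Distance was taken between bin starts. Counting was tested on simulated lists. All 15 genes of the loci were found in the Release 6 RefSeq table, used for names and order only; no promoter or protein sequence was at hand.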

Additional observations from a re-analysis of the deposited data

How the results depend on the processing

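Of 86 alternative values, 53 lay inside the 95% interval given for the result (pairs between loci, within 1.5 times of the count), 30 lay outside and 3 crossed a ratio of 1. The second list is the same at equal length, so its median distance could not move there. All pairs joining 2 loci in the windows as given used 3R 8280001-8290000. The settings below with 0 such pairs leave that bin out, so this outcome was fixed in advance. Why the other values moved was not tested. With lists of equal length, the ratio was 0.891 for Hsp70B, 0.561 for the small Hsp cluster, 2.09 for Hsp83 and 1.73 for all loci (2.56 as reported), 1 heat-shock pair joined 2 loci, and 28.6% of second-list pairs were shared. In the strongest 50% of each list, the ratio was 1.21 for Hsp70B and 0.816 for the small Hsp cluster, and 1 heat-shock pair joined 2 loci. With windows widened by 1 bin on either side, 7 heat-shock and 2 second-list pairs joined 2 loci, and the ratio for all loci was 2.19. Without the bins in the top 1% by partners, 4 of which lie in the loci, the ratio was 1.67 for Hsp68, 3.12 for Hsp70B and 1.29 for Hsp83, 0 heat-shock and 0 second-list pairs joined 2 loci, and 27.5% of second-list pairs were shared. Without the richest bin of each locus, a step added after the data were seen, the ratio was 1.80 for Hsp68, 2.80 for Hsp70B, 1.31 for Hsp83 and 1.61 for all loci. Over the whole lists the ratio was then 1.74. There, 0 heat-shock and 0 second-list pairs joined 2 loci, and 26.6% of second-list pairs were shared. Without the bin richest in the second list, added likewise, the ratio was 4.65 for Hsp83, 10.5% of heat-shock pairs were shared, 0 pairs of either list joined 2 loci, and Hsp68 (1.80) and Hsp70B (2.80) were as before. Counting pairs as shared within 1 bin gave 28.2% of heat-shock and 52.7% of second-list pairs. The Hsp70A ratio lay between 3.85 and 5.35 in all alternatives run, above that of 3R in each. The setting without the top 1% left out no bin of that locus, so it hardly tested it. No paired analysis was possible because each list is 1 table with no values per library, and leaving out a library was not possible for the same reason. With unknown depth, bins in contact can be missing from either list.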

Other observations

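Bins just outside the windows also differed between the lists. Beside Hsp83, 3L 3150001-3160000 had 116 partners in the HS list and 12 in the second list, while 3L 3160001-3170000, between it and the window, had 13 and 17. Before the Hsp70B window, 4 neighbouring bins from 3R 8230001 to 8270000 had 37, 32, 26 and 35 partners in the HS list and 26, 26, 21 and 23 in the second list. After that window, 3R 8360001-8370000 and 3R 8370001-8380000 had 1 and 2 partners in the HS list and 0 in the second list. Beside the small Hsp cluster the direction was mixed. Before it, 3L 9300001-9310000 had 18 partners in the HS list and 45 in the second list, 3L 9310001-9320000 had 4 and 14, 3L 9320001-9330000 had 1 and 12, 3L 9330001-9340000 had 2 and 2, and 3L 9340001-9350000, next to the window, had 9 and 6. After the cluster, 3L 9400001-9410000 had 9 and 24, 3L 9410001-9420000 had 16 and 7, 3L 9420001-9430000 had 22 and 10, 3L 9430001-9440000 had none, and 3L 9440001-9450000 had 41 and 53. These bins were singled out after their values were seen, and the differences were not tested.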
